A study of Mus musculus with 5 samples.

Results

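The 7 genes described here encode subunits of the GABA-A receptor. They are Gabra2, Gabra3, Gabra4 and Gabra5 (subunits alpha2 to alpha5), Gabrb1 and Gabrb2 (beta1 and beta2) and Gabrd (delta). They were chosen by name from the 23420 gene symbols of the series, in which 19 symbols belong to this receptor family. All 7 were expressed, with a mean regularized log (rlog) value of at least 5 over the 5 libraries, as were 13550 genes in all.

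RNA of the microdissected dentate gyrus (DG) of wild-type male CD1 mice, an outbred strain, was pooled after 4 weeks of housing and sequenced as 5 libraries. The LD pool held 8 individually housed mice with a locked disk, the RUN pool 8 individually housed mice with a running disk, and the CE pool 8 mice housed in social groups with a locked disk and tunnels. The L-RUN and H-RUN pools held the 4 runners with the lowest and the 4 with the highest running distances, so that they contained RNA of the same animals as RUN. The labels give the age as 4 months, whereas the methods of the study give a lower age. Each group was 1 library of pooled animals, with no replicate, so that no p-value could be computed and differences between mice were not measured. Social housing and tunnels came together in CE and cannot be told apart.

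GABA-A receptors are pentameric chloride channels that open when GABA, the main inhibitory transmitter of the brain, binds between a beta and an alpha subunit. Most hold alpha and beta subunits together with a gamma subunit and sit at synapses, where they carry fast inhibition. In granule cells of the DG, receptors with alpha4 and delta lie outside synapses and carry a tonic current, and receptors with alpha5 are also largely extrasynaptic. The genes of the family lie in clusters on several chromosomes.

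On the mm10 assembly (GRCm38, GENCODE annotation), Gabra2 lies on chromosome 5 from 70957597 to 71095849, Gabra4 on the same chromosome from 71569749 to 71658308 and Gabrb1 from 71658113 to 72149037. Gabra4 and Gabrb1 are transcribed away from each other and the annotated genes overlap by 196 bases. Gabra5 lies on chromosome 7 from 57407672 to 57510059. Gabrb2 lies on chromosome 11 from 42419757 to 42629028, Gabrd on chromosome 4 from 155384980 to 155398112, and Gabra3 on chromosome X from 72432681 to 72656848. The sources used here do not say that reads were counted by strand, so reads from shared exonic stretches of overlapping genes cannot be told apart.

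RefSeq (GRCm38.p6) gave start sites for 6 of the 7 genes, all but Gabrd. The 250 bases before 1 start are shown for Gabra3, the gene with the largest differences, and for Gabra2 and Gabrb1, whose 5 values ran in parallel. Gabra3 and Gabrb1 each have 2 starts in RefSeq, and for both the stretch that overlaps no annotated exon of a subunit gene was chosen. The stretches not shown had a GC content of 39.2% (Gabra3) and 64.4% (Gabrb1). Capitals mark a TATAAA or GGGCGG motif on either strand.
Gabra3, chrX:72656920-72657169, minus strand: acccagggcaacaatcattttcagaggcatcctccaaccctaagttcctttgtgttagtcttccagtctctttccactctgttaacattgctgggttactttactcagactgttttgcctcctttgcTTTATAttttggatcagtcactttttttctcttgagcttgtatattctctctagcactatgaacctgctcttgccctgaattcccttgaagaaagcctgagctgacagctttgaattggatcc
Gabra2, chr5:71095850-71096099, minus strand: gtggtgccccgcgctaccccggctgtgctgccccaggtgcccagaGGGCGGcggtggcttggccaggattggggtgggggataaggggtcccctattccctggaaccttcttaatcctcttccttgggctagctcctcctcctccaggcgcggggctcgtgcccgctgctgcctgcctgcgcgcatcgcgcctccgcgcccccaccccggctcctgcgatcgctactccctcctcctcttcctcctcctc
Gabrb1, chr5:71699682-71699931, plus strand: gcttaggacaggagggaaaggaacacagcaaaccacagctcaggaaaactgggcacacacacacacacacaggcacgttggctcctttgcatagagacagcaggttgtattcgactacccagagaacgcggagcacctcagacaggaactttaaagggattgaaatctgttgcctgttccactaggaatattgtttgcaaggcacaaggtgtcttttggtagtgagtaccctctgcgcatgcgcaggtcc
The Gabra2 stretch had a GC content of 70.0% and held 1 GC box (GGGCGG), which 32.7% of the 32851 RefSeq windows of this length hold. The Gabra3 stretch had a GC content of 42.4% and held 1 TATAAA, on the strand opposite to transcription, which 12.4% of windows hold on either strand. The Gabrb1 stretch, at the downstream of its 2 RefSeq starts, had a GC content of 50.8% and held neither. The core of the cAMP response element (TGACG, in 17.8% of windows), the AP-1 motif (TGANTCA, 6.75%) and the EGR motif (GCGNGGGCG, 4.70%) were searched as well on both strands and were not in these 3 stretches. The Gabrb1 stretch also overlaps an exon of Gm38562, an antisense non-coding gene.

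The only measure of error was the RUN library, whose rlog value can be set against the mean of the linear values of its L-RUN and H-RUN parts. This gave a technical SD of a difference between 2 libraries of 0.0365 on the log2 scale over all expressed genes, and of 0.022 to 0.047 for the 7 subunit genes by their level of expression. The measured RUN value of each of the 7 genes lay within 0.034 of that mean. The technical SD covers library preparation and sequencing only. A difference of at least 0.3 on the log2 scale was called. The 4 comparisons with LD share its library and are not independent of each other.

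By this limit, 1 of the 7 genes changed against LD, and only in H-RUN: Gabra3 fell by 0.40 (log2). The count was 0 of 7 in the comparisons of CE, RUN and L-RUN. In either direction, H-RUN passed the limit for 0.827% of expressed genes, CE for 0.598%, RUN for 1.31% and L-RUN for 3.13%. A single call among 7 genes is not read as a result about the group. The median difference of the 7 genes from LD was 0.05 for H-RUN, 0.02 for RUN, 0.01 for L-RUN and -0.06 for CE. Over all expressed genes the medians lay between -0.004 and -0.001. Single members went in different directions, so that this median does not describe them.

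**Figure D1:**
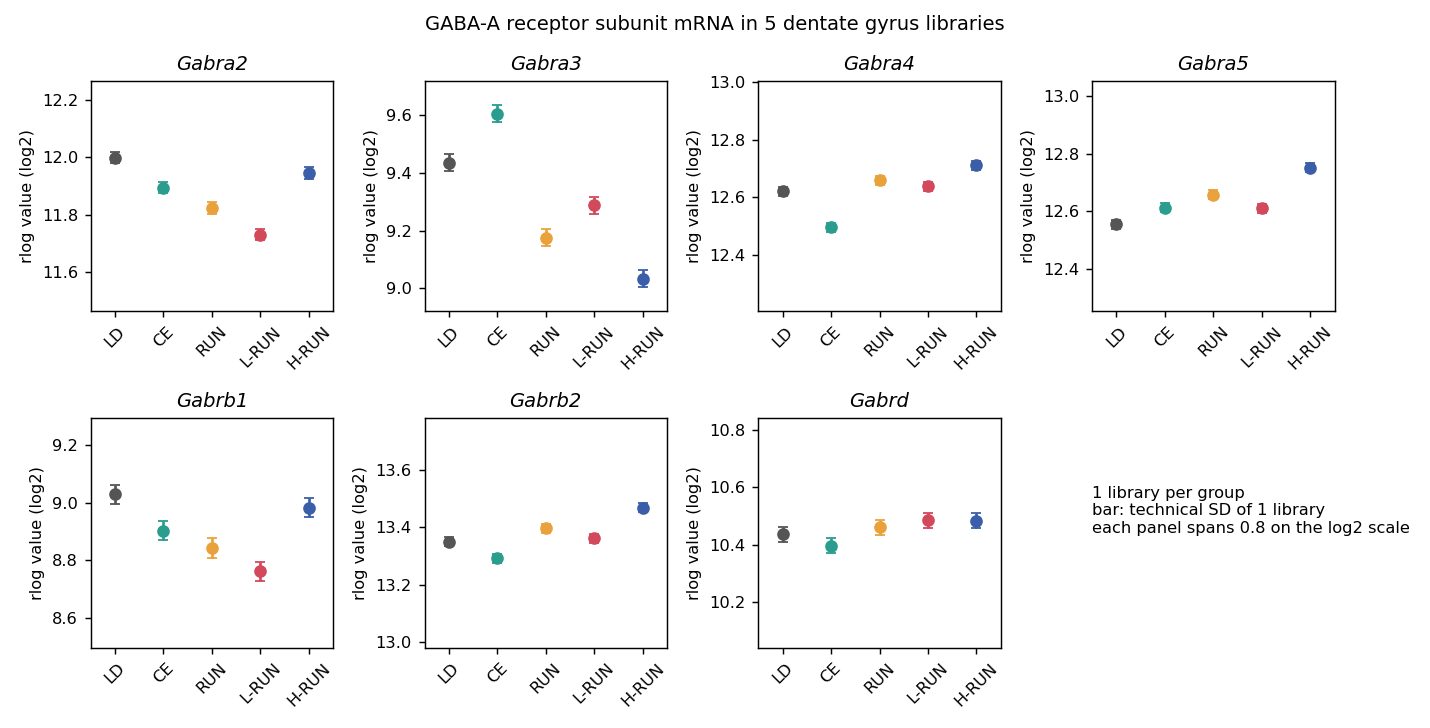
The rlog value (log2, vertical axis) of each of the 7 subunit genes is plotted for the LD, CE, RUN, L-RUN and H-RUN libraries, with bars for the technical SD of 1 library. Gabra3 spans 0.57 from CE to H-RUN, Gabra2 and Gabrb1 both span 0.27 from LD to L-RUN, and Gabrd spans 0.09.

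Gabra3 encodes alpha3, a subunit abundant in the reticular thalamus and in monoaminergic nuclei. Its rlog value was 9.61 in CE, 9.44 in LD, 9.29 in L-RUN, 9.18 in RUN and 9.03 in H-RUN. All 3 running libraries were below LD and CE was above it. Each step in this order was larger than 2 technical SDs (technical SD of a difference 0.042), a limit that many expressed genes also passed against LD. RUN holds RNA of the same animals as L-RUN and H-RUN, so that its place between them is no separate observation. Against LD, Gabra3 differed by 0.17 (CE), -0.15 (L-RUN), -0.26 (RUN) and -0.40 (H-RUN), the last of which is a linear change of -24.3%. Lower values by 0.3 or more were found for 0.472% of expressed genes in H-RUN, and 0.244% of expressed genes had a larger difference of either sign there. Between the running pools themselves, Gabra3 was 0.25 lower in H-RUN than in L-RUN, which is under the limit.

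The contrast between the enriched environments was larger than either difference from LD for this gene. Gabra3 was 0.43 lower in RUN than in CE (a linear change of -25.8%), and it was the only one of the 7 genes called in that comparison, where 0.834% of expressed genes were called and 0.539% were called lower. A larger difference of either sign was seen in 0.199% of expressed genes. Set against both non-running libraries averaged, Gabra3 passed the limit in RUN. This only combines its differences of -0.26 from LD, which is under the limit, and -0.43 from CE, and is no separate observation. The share of all expressed genes was not computed for that baseline.

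The transcripts whose 5 values ran closest to those of Gabra3, by Euclidean distance after centring each gene on its mean, were Kcnf1, Rhbdl3 and Mfge8, out of 13543 other expressed genes. Kcnf1, a silent subunit of voltage-gated potassium channels, was at a distance of 0.055 and had its highest rlog value in CE (10.32) and its lowest in H-RUN (9.80), with 10.21 in LD. Rhbdl3, a rhomboid-like protein, was at 0.086, and Mfge8, a secreted bridging protein of phagocytosis, at 0.119. With 5 libraries, of which RUN is made of the same RNA as L-RUN and H-RUN, such likeness is a description of these libraries.

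Markers of other cell types also varied between these libraries. The summed level of 8 interneuron markers was highest in CE (12.63, log2) and lowest in H-RUN (12.46). Summed levels add linear values, so that the most abundant markers of a list weigh most. It was 12.47 in LD, 12.52 in RUN and 12.54 in L-RUN. The median difference of these markers from LD was 0.07 in CE, 0.02 in L-RUN, -0.001 in RUN and -0.04 in H-RUN. In CE, 1 of 8 was called higher, and in L-RUN 1 was called in each direction. Of all 13550 expressed genes, 45 were called higher in CE. In L-RUN 108 were called higher and 316 lower, and in H-RUN 48 higher and 64 lower. Of 8 markers of CA pyramidal cells, a neighbouring field, 5 were above LD in H-RUN, with 1 higher and 1 lower past the limit and a median of 0.07. Their summed level was 13.19 in H-RUN, 13.20 in LD and 13.17 in CE. Within that list the markers went in opposite directions. Fibcd1 was 0.31 higher in CE and 0.52 lower in H-RUN than in LD, whereas Bok differed by -0.13 in CE and was 0.41 higher in H-RUN. Both were chosen after their values were seen. The part of these cells in the Gabra3 values was not tested. In bulk tissue, fewer cells of a type and less RNA per cell cannot be told apart.

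**Figure D2:**
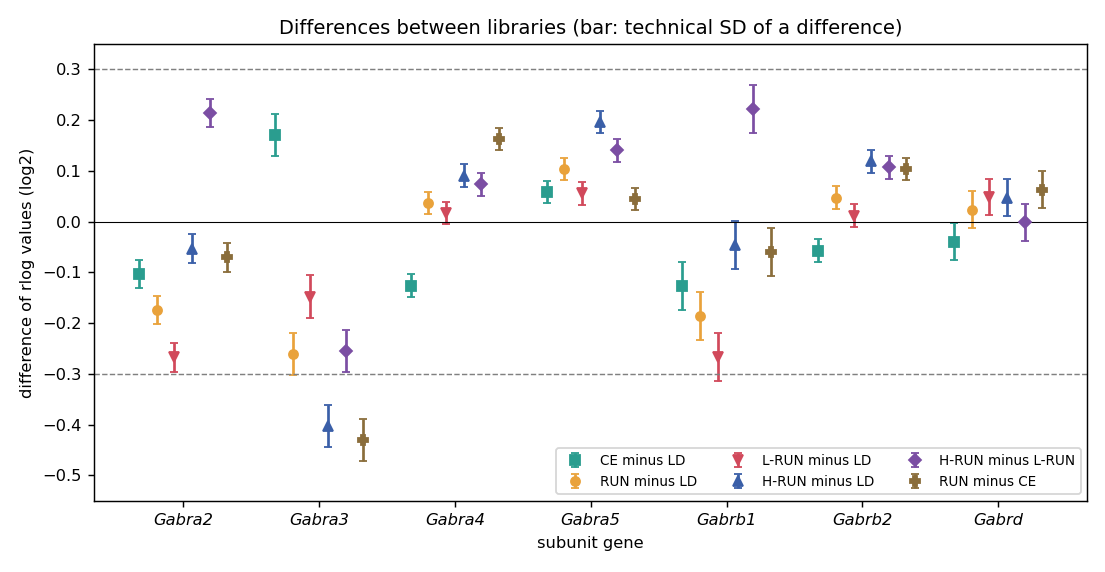
The difference of rlog values (log2, vertical axis) is plotted for 6 comparisons in each of the 7 subunit genes, with bars for the technical SD of a difference and dashed lines at the limit of 0.3. Only Gabra3 crosses a dashed line, at -0.40 in H-RUN minus LD and at -0.43 in RUN minus CE.

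Gabra2 encodes alpha2, a subunit of synaptic receptors that is enriched at the axon initial segment of principal cells. Its rlog value was 11.998 in LD, 11.94 in H-RUN, 11.89 in CE, 11.82 in RUN and 11.73 in L-RUN. L-RUN was lowest, whereas LD and H-RUN, and H-RUN and CE, were within 2 technical SDs of each other (technical SD 0.028). The difference from LD was -0.27 in L-RUN, -0.17 in RUN, -0.10 in CE and -0.05 in H-RUN.

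Gabrb1 encodes beta1, a beta subunit with low sensitivity to the anaesthetic etomidate. Its rlog value was 9.03 in LD, 8.98 in H-RUN, 8.90 in CE, 8.84 in RUN and 8.76 in L-RUN. This is the same order of libraries as for Gabra2, although no step between neighbours passed 2 technical SDs of this less abundant transcript (technical SD 0.047). The difference from LD was also -0.27 in L-RUN, with -0.19 in RUN, -0.13 in CE and -0.05 in H-RUN.

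The gap between the rlog values of Gabra2 and Gabrb1 was 2.96 to 2.99 in all 5 libraries, and of 13549 expressed genes only 3 lay nearer to Gabra2 than Gabrb1 did. The range of the gap (0.030) was smaller than the technical SD of Gabrb1 (0.047), so that so near a rank is finer than the error of measurement. The genes belong to the same cluster on chromosome 5 and lie 562263 bases apart. Gabra4, which lies between them and overlaps the start of Gabrb1, did not share their order: 9582 expressed genes were nearer to Gabra2. In L-RUN, the differences of Gabra2 and Gabrb1 from LD were under the limit, and 4.35% and 4.39% of expressed genes had larger ones. Between the running pools, Gabra2 was 0.21 and Gabrb1 0.22 higher in H-RUN than in L-RUN, again under the limit, which 1.54% of expressed genes passed.

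Gabra2 and Gabrb1 also have the longest transcripts of the 7 genes, and differences from LD varied with transcript length. The longest coding transcript of Gabra2 has 5852 nt and that of Gabrb1 13737 nt, longer than in 84.5% and 99.3% of expressed genes. Over all expressed genes with a length, the median difference of L-RUN from LD was 0.075 in the 2553 shortest and -0.099 in the 2553 longest genes. For H-RUN these medians were 0.037 and -0.050. Without this trend, the difference in L-RUN was -0.19 for Gabra2 and -0.11 for Gabrb1, so that both were still lower. The size of this adjustment rests on the transcript length chosen. The trend left Gabra3 in H-RUN at -0.39. Markers of several cell types also differed in L-RUN, where 108 of all 13550 expressed genes were called higher and 316 lower. Of 8 granule cell markers, 3 were above LD and 5 below, with 1 called in each direction. Prox1, a defining factor of granule cells, was 0.41 lower than in LD and C1ql2, a synaptic protein of their axons, was 0.37 higher, both named after their values were seen. The summed level of the 8 was 15.30 against 15.39 in LD. Of the 8 CA pyramidal markers, 4 were called lower, with a summed level of 12.95 against 13.20, and 2 of 8 astrocyte markers were called lower (16.46 against 16.75). All 6 oligodendrocyte markers were below LD, with a median of -0.20 and 0 past the limit. Of 10 expressed leptomeningeal markers, 6 were called higher, with a summed level of the list of 14.01 against 12.49. The most abundant marker weighs most in such a sum. This was Ptgds for the leptomeninges (13.61 in L-RUN against 11.64 in LD) and Slc1a2 for astrocytes (15.70 against 16.06). Slc1a2 also has a long transcript (11595 nt). The part of length and of these cells in the values of Gabra2 and Gabrb1 was not tested.

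**Figure D3:**
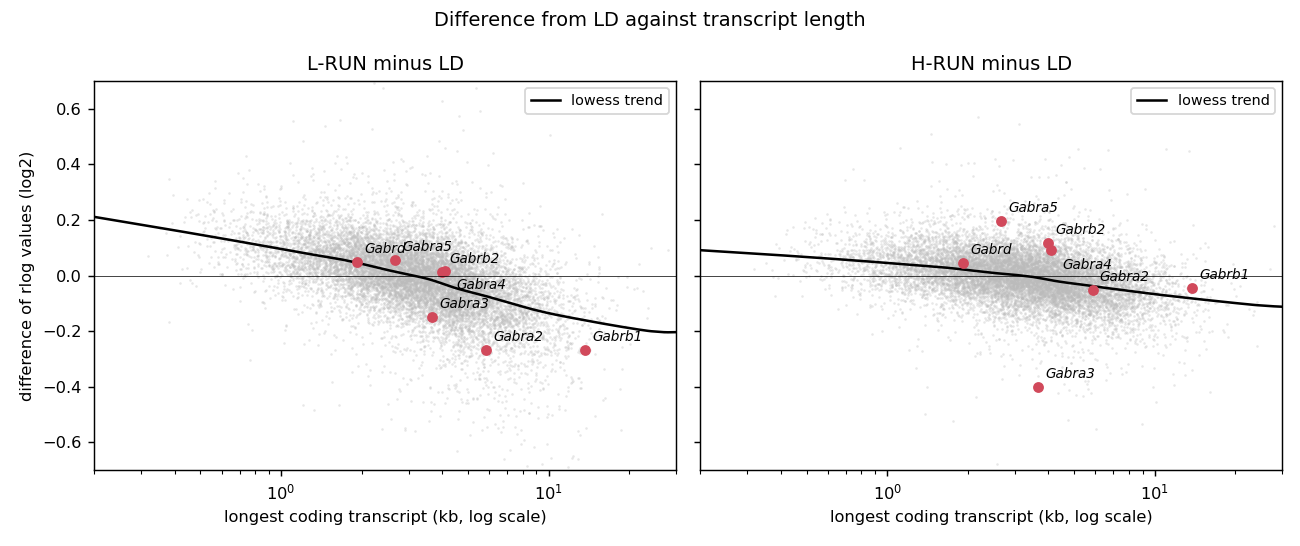
The difference from LD (log2, vertical axis) in L-RUN (left) and H-RUN (right) is plotted against the length of the longest coding transcript (kb, log scale) for expressed genes (grey; a few lie outside the axes), with a lowess curve and the 7 subunit genes in red. Gabra2 and Gabrb1 lie below the curve in L-RUN, and Gabra3 lies far below it in H-RUN at -0.40.

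The remaining 4 genes had values above LD in all running libraries, which share RNA of the same animals, by amounts under the limit. Gabra4 and Gabrb2 in L-RUN and Gabrd in RUN differed from LD by less than 1 technical SD, and Gabrd in RUN was at -0.01 without the length trend. Gabra5 encodes alpha5, which carries tonic inhibition in hippocampal neurons. Its rlog value was 12.75 in H-RUN, 12.66 in RUN, 12.61 in CE, 12.61 in L-RUN and 12.55 in LD. H-RUN was highest and LD lowest, and CE and L-RUN were indistinguishable (technical SD 0.022). The difference of H-RUN from LD was 0.20, or 14.6% on the linear scale, and 3.53% of expressed genes differed more.

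Gabrb2 encodes beta2, a beta subunit of many synaptic receptors. Its rlog value was 13.47 in H-RUN, 13.40 in RUN, 13.36 in L-RUN, 13.35 in LD and 13.29 in CE. RUN, L-RUN and LD were each within 2 technical SDs of the next, while H-RUN was above and CE below them. The difference from LD was 0.12 in H-RUN and -0.06 in CE.

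Gabra4 and Gabrd encode alpha4 and delta, the partners of the extrasynaptic receptor of granule cells. The rlog value of Gabra4 was 12.71 in H-RUN, 12.66 in RUN, 12.64 in L-RUN, 12.62 in LD and 12.50 in CE. CE was lowest, 0.13 below LD (technical SD 0.022), and 16.8% of expressed genes differed more in that comparison. RUN was 0.16 above CE, where 6.39% of expressed genes differed more. The rlog value of Gabrd was 10.49 in L-RUN, 10.48 in H-RUN, 10.46 in RUN, 10.44 in LD and 10.40 in CE. No neighbouring libraries differed by 2 technical SDs for Gabrd (technical SD 0.036), and its range of 0.09 was the smallest of the 7 genes.

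**Figure D4:**
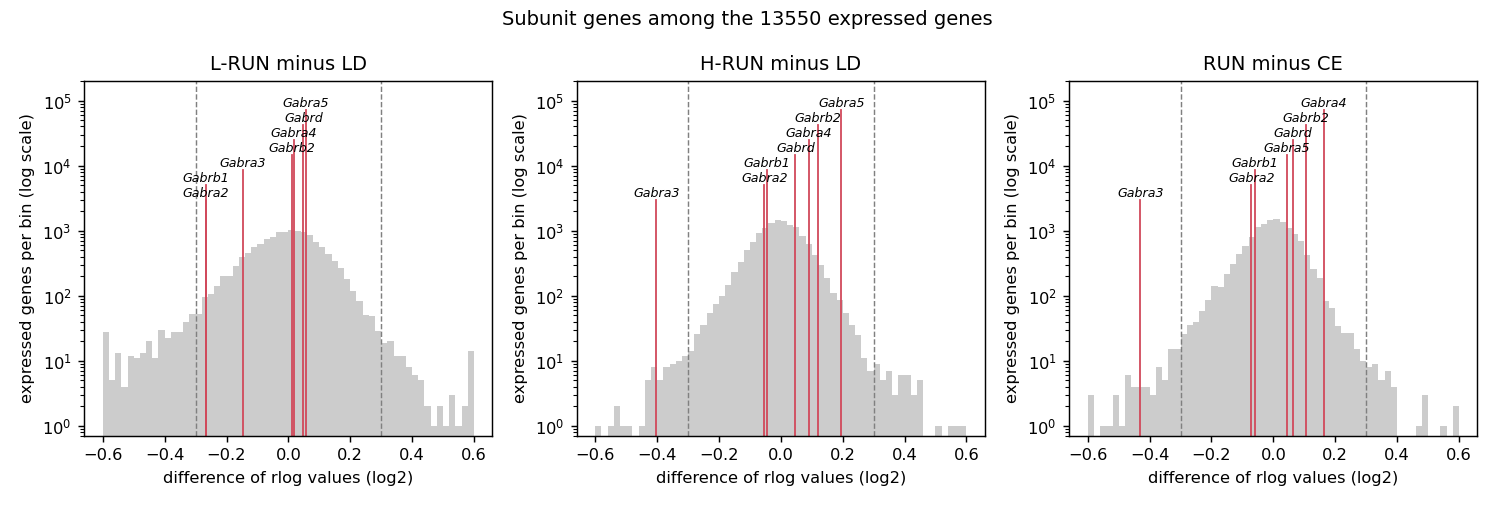
Grey bars count expressed genes by their difference of rlog values (log2, horizontal axis; the vertical axis is a log scale, and the outermost bins also hold larger differences), and red lines mark the 7 subunit genes. In L-RUN minus LD no subunit gene is past the dashed limits of 0.3, whereas Gabra3 lies at -0.40 in H-RUN minus LD and at -0.43 in RUN minus CE.

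To compare levels between genes, rlog values were expressed per kb of the longest coding transcript. Of the 7 genes, Gabrb2 had the highest mean level per kb over the libraries (11.38, log2), followed by Gabra5 (11.22), Gabra4 (10.59), Gabrd (9.51), Gabra2 (9.33), Gabra3 (7.43) and Gabrb1 (5.12). The steps between Gabrb2 and Gabra5 and between Gabrd and Gabra2 were no larger than the range of Gabra5 and of Gabra2, respectively, over the libraries. Per kb of coding sequence, Gabra2 (11.44) stood above Gabrd (10.02), and Gabrb1 (8.40) came close to Gabra3 (8.63). These parts of the order, and the very low level of Gabrb1 per kb of transcript, rest on the length chosen.

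The rlog value of Gabra4 exceeded that of Gabra2 by 0.60 in CE, 0.62 in LD, 0.77 in H-RUN, 0.83 in RUN and 0.91 in L-RUN. The gap was wider in all 3 running libraries than in both others, without correction for the trend with transcript length. Gabra4 in L-RUN and in RUN, and Gabra2 in H-RUN, were within 2 technical SDs of LD. Several gene pairs were compared in this way, and the share of all gene pairs with such a gap was not computed. RUN holds RNA of the same animals as L-RUN and H-RUN and is no separate observation.

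Of the other 12 subunit genes of the family, 4 were expressed and 8 were under the expression limit. None of the 4 was called in any of the 6 comparisons, and their median difference from LD ranged from -0.07 in L-RUN to 0.07 in H-RUN. With 0.598% to 3.13% of all expressed genes called in these comparisons, the absence of a call is not read as a result.

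Among 13 genes for anchoring and assembly of the receptor, 0 were called in any comparison. With 0.598% to 3.13% of all expressed genes called, this count is not read as a result. Their median difference from LD was -0.10 in L-RUN, -0.10 in RUN, -0.04 in CE and -0.04 in H-RUN. Slitrk3, a postsynaptic adhesion protein of inhibitory synapses, had the lowest difference in L-RUN (-0.22) and Gabarap, a trafficking protein of the receptor, the highest (0.09).

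Of 10 genes for the supply and uptake of GABA and for chloride transport, 1 was called against LD. Slc6a13, which encodes the GABA transporter GAT2 and is expressed in the leptomeninges, was 0.69 higher in L-RUN and 0.41 higher in RUN, with 0.07 in CE and -0.04 in H-RUN. Gad1 and Gad2, which make GABA, were within 0.07 of LD in each library. Slc6a11, a glial GABA transporter gene chosen after its values were seen, was 0.38 lower in RUN than in CE, while Slc6a13 was 0.34 higher. Of 10 expressed markers of the leptomeninges, 6 were called higher in L-RUN, 5 in RUN, 4 in CE and 0 in H-RUN. Of all 13550 expressed genes, 108 were called higher in L-RUN, 49 in RUN, 45 in CE and 48 in H-RUN. The summed level of the leptomeningeal markers was 14.01 in L-RUN and 12.49 in LD. In L-RUN, 4 of the 7 subunit genes were above LD and 3 were below it. The part of leptomeningeal RNA in the values of the 7 genes was not tested.

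The granule cell markers were all present, with Prox1 at 11.61 to 12.01 and a summed level of 8 markers of 15.23 to 15.39. The summed levels of astrocyte (16.46 to 16.75), microglia (12.42 to 12.56), immature neuron (11.95 to 12.14) and choroid plexus (9.43 to 9.69) markers differed by less than 0.3 between libraries. The leptomeningeal markers were the only list whose summed level had a wider range, 1.64. Of 2 expressed choroid plexus markers, 1 was called higher in CE than in LD. This was Ttr, by 0.62, whereas Kl differed by 0.03. Both were named after their values were seen.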

How the data were processed

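RNA of pooled DG samples was sequenced in 5 libraries. Per the labels and the methods of the study, the authors used CASAVA 1.8.2, trimmed adapters, mapped reads to mm10 with TopHat2 2.0.10, counted reads per RefSeq gene (HTSeq) and extracted regularized log values with DESeq2 1.10.1, normalizing all libraries at once. The deposited values are on the log2 scale and are shrunken towards the mean of each gene, so that differences of genes with few reads are understated. Counts were not used here, and the depth of the libraries is unknown.

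Differences of rlog values were computed for 6 comparisons among 13550 genes with a mean of at least 5. Differences of at least 0.3 were called. The technical SD was the residual of RUN from the linear mean of L-RUN and H-RUN (median absolute deviation, per decile of expression), taking its variance as 1.5 times that of 1 library. No test was possible with 1 library per group. Transcript lengths (GENCODE M21) matched 94.2% of expressed genes by symbol, and their trend was removed with lowess (fraction 0.3). Named genes were the 7 subunit genes, the genes of fixed lists past the limit against LD (otherwise the highest and lowest in L-RUN), and the 3 genes most like any of the 7 subunit genes that spanned at least 0.3, which only Gabra3 did. Values of some genes that this rule names, and results that need them, are not reported here. The members and lists were chosen with earlier results of these data known. On simulated data, 200 genes with known changes were used to test the scripts. Alternatives were limits of 0.2 and 0.4, median centring, quantile normalization, removal of the length trend, LD and CE averaged as baseline, other expression limits and another mixture. Computations ran under python 3.11.15 (statsmodels 0.14.6, pandas 2.3.3, numpy 2.4.6, matplotlib 3.10.9).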

Additional observations from a re-analysis of the deposited data

Results flagged for a closer look

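For 2 of the genes named above, the values of the low and the high runners lay on opposite sides of LD. The difference of Slc6a13 from LD was 0.69 (L-RUN) and -0.04 (H-RUN), and H-RUN minus L-RUN was -0.73 (log2). The value of Slc6a13 in H-RUN was within the technical SD (0.044) of LD, so that its side there is not established. The difference of Gad1 from LD was 0.029 (L-RUN) and -0.0055 (H-RUN), and H-RUN minus L-RUN was -0.035, with a technical SD of 0.022. Each pool was 1 library, and these differences between pools were not tested. As deposited, none of the 7 subunit genes lay on opposite sides, but Gabra4 and Gabrb2 in L-RUN and Gabrb1 in H-RUN were within 1 technical SD of LD. Without the length trend, Gabrb1 was at -0.11 in L-RUN and at 0.04 in H-RUN.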

How the results depend on the processing

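The calls of Gabra3 in H-RUN minus LD and in RUN minus CE were made under each alternative tried for them. In H-RUN minus LD, the value of -0.4025 passed the limit of 0.4 only narrowly. It was -0.399 under median centring, -0.396 under quantile normalization and -0.395 without the length trend, each set against 0.3 only. At a limit of 0.2, the number of the 7 subunit genes past the limit was 1 in RUN minus LD, 2 in L-RUN minus LD and 3 in H-RUN minus L-RUN, where it was 0 at 0.3. Against LD and CE averaged, 1 gene passed in RUN. The share of all expressed genes past these limits was not computed for either setting, so that the counts are not read as results. In CE minus LD the count was 0 under each alternative. Of the 42 differences of the 7 genes, 15 moved by more than 1 technical SD when the length trend was removed, 7 under quantile normalization and 0 under median centring, and no called value turned its direction. Without the length trend, Gabrb1 in H-RUN minus LD was 0.04 instead of -0.05, and Gabrd in RUN minus LD was -0.01 instead of 0.02. Per kb of coding sequence instead of transcript, a length chosen after the data were seen, Gabra2 stood above Gabrd. No paired analysis was possible because each group is 1 library. The unknown depth, the shrinkage of rlog values and the lack of replicate libraries limit all differences.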
